A study of Saccharomyces cerevisiae with 5 samples.

Results

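The 35 proteasome genes of budding yeast were compared between a chs2Δ strain and its wild-type parent, out of 6256 genes represented on the array. They were chosen by name from a fixed list of proteasome subunits and 3 partners. Every gene spot whose gene name or systematic ORF name was on the list was taken, without regard to its signal. The list did not hold every subunit: SEM1, a small lid subunit, was not on it and is described with the accessory factors. The set held 14 genes of the core particle, 9 of the base, 8 of the lid and 4 others, which were RPN10 (a subunit at the joint of base and lid), RPN4, UMP1 and BLM3. All 35 were found on the array, and all 35 gave a ratio.

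The proteasome degrades proteins that carry ubiquitin chains. Its barrel-shaped core particle is built of outer α rings, which form the gate, and inner β rings, which hold the proteolytic sites. A regulatory particle caps the barrel. Its base contains a ring of ATPases (RPT genes) that unfold substrates, and its lid contains RPN11, the enzyme that removes the ubiquitin chain. In yeast these genes are transcribed under a shared activator, Rpn4, which is itself a short-lived substrate of the proteasome.

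The chs2Δ strain was YFR23 (chs2::KANMX4), which lacks chitin synthase II, the enzyme of the primary septum, and the wild type was its haploid MAT α parent MGD353-46D. Both strains carried mutant alleles of trp1, ura3 and leu2, his3Δ1 and cycloheximide resistance (cyhR) and were grown overnight in complete synthetic medium or its histidine dropout form. Each of 5 two-colour Agilent arrays paired RNA of 1 chs2Δ culture with RNA of 1 wild-type culture, with chs2Δ in Cy5 on replicates 1, 3 and 5 and in Cy3 on replicates 2 and 4. Replicate 1 was alone on slide 1, replicates 2 and 3 shared slide 2, and replicates 4 and 5 shared slide 3. All chs2Δ values come from a single deletion strain. The array titles carry the name of a myo1Δ strain while the sample sources name YFR23, and the series text mentions triplicate as well as 5 replicate cultures.

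On each array the chs2Δ channel was the dimmer one. Array medians of the signal above local background ranged from 79.8 to 202 units of intensity for chs2Δ and from 218 to 444 for wild type, and 78.1% to 86.3% of genes were above background in chs2Δ, against 90.7% to 95.8% in wild type. CHS2 itself had a log2 ratio of chs2Δ over wild type of -0.81 (SE 0.17, adjusted p = 0.0025 from limma). Its chs2Δ signal was above background on 4 of the 5 arrays, and no source used here places its probe relative to the deletion. MYO1 had a log2 ratio of -0.31 (adjusted p = 0.0013). Of 5 transcripts that mark haploid α cells, 5 were lower in chs2Δ, when 36.0% of all genes were lower. The log2 ratios of these 5 ranged from -2.53 to -0.70 after loess. Their median was -2.43, and -2.97 with median centring, whereas the lowest proteasome gene, RPT1, had -0.68 after loess. The reason for the low α-cell transcripts was not tested. None of 5 a-cell transcripts was called after loess (limma, adjusted p below 0.05; 0 of 5 also at an unadjusted p below 0.05), although their median log2 ratio was 0.78 with median centring, and STE2, MFA1 and BAR1 were above background in chs2Δ on 0 arrays.

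After loess normalization within each array, the proteasome genes did not move as a block. Of the 35 genes, 10 were higher in chs2Δ, 12 were lower and 13 were not called (limma, adjusted p below 0.05 over the 6246 genes tested). As the RNA came from whole cultures, a change in the share of cells that express a gene and a change in RNA per cell cannot be told apart. Of all genes tested, 35.7% were higher and 36.0% were lower, so both shares of the proteasome genes, 28.6% higher and 34.3% lower, lay near or below those of the array as a whole. The median log2 ratio of the 35 genes was 0.03, against -0.01 for all genes. Their ratios were also less spread out, with an SD over genes of 0.44, against 0.76 for all genes. A change of 2-fold or more was called for 2 of the 35 genes, PRE6 and RPN1, and for 15.6% of all genes.

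The direction of the change repeated on every array for part of the genes. Of the 35 genes, 22 had the same sign on 5 of 5 arrays. Among all genes 4305 of 6246 did so, which is no smaller a share. The SD of a gene's log2 ratio over the arrays had a median of 0.13 among proteasome genes and 0.15 among all genes. All 35 genes were above background in both strains on 5 arrays, and none was saturated. An exact sign-flip test over 5 arrays cannot give a two-sided p below 0.063, so the single-gene p-values below are those of limma, which borrows the spread across genes.

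**Figure D1:**
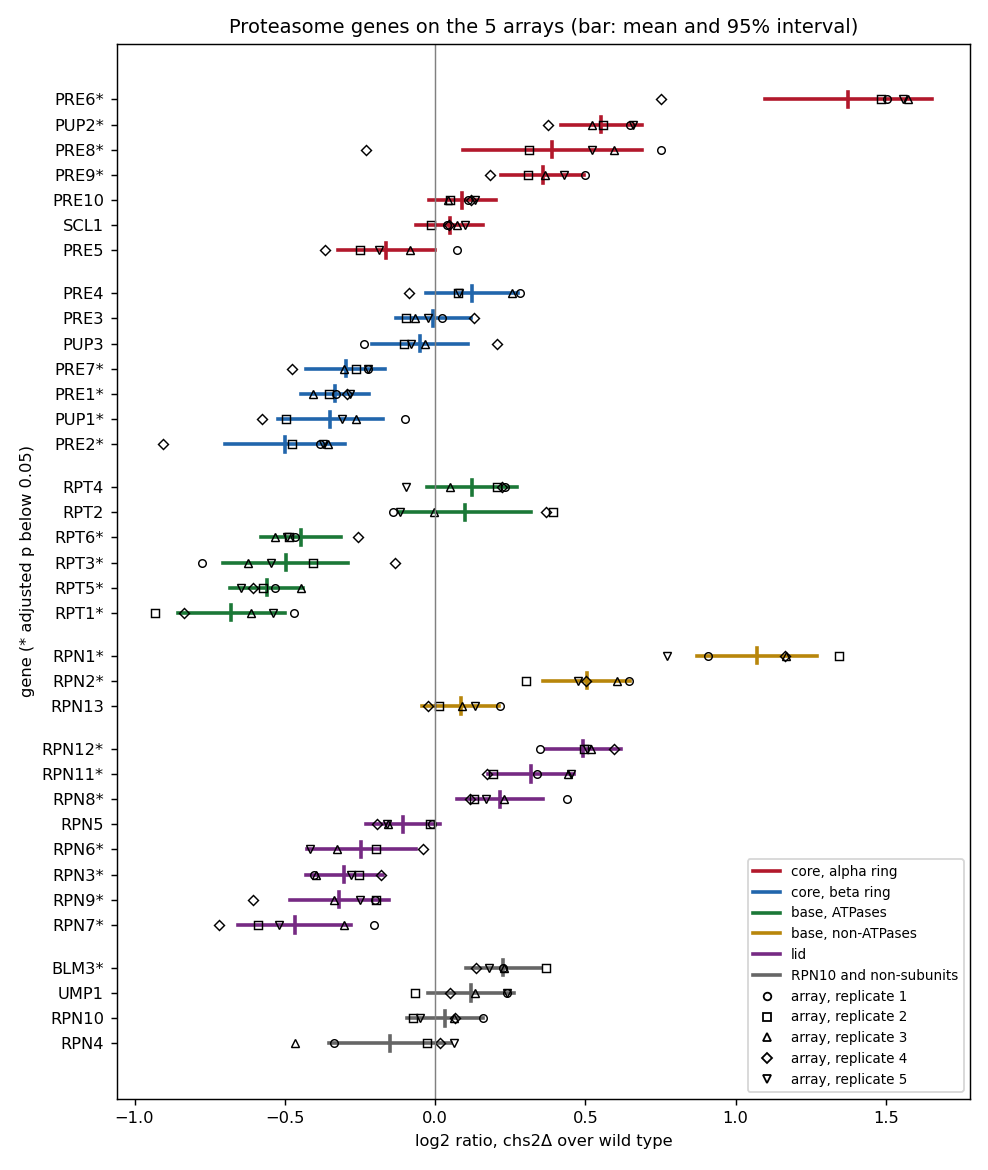
Each row is a proteasome gene, grouped by its place in the complex, with the log2 ratio of chs2Δ over wild type on the horizontal axis. Open symbols are the 5 arrays, the vertical tick is the mean and the bar its 95% interval from limma, and an asterisk marks an adjusted p below 0.05. PRE6 and RPN1 lie farthest to the right and RPT1 farthest to the left after loess normalization. With median centring 30 of the genes are lower.

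The sign of 15 of the 35 ratios depended on how the dimmer channel was scaled. Loess sets each gene against genes of similar brightness, whereas median centring sets it against the middle of the whole array. With median centring, 3 of the 35 genes were higher in chs2Δ (PRE6, RPN1 and BLM3) and 30 were lower, when 41.5% of all genes were higher and 41.6% lower. The median log2 ratio of the proteasome genes was then -0.60, and a gene's ratio shifted by a median of -0.22 over all genes. The proteasome genes were brighter than most, with a median mean log2 intensity of 9.33, against 7.88 for all genes. The 175 genes with no signal above background in either strain on any array had a median log2 ratio of 0.02 with loess and 0.98 with median centring. PRE6, with log2 ratios of 1.37 and 0.61 under loess and median centring, and RPN1, with 1.07 and 0.36, were higher both ways. All values below are those after loess unless median centring is named.

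**Figure D2:**
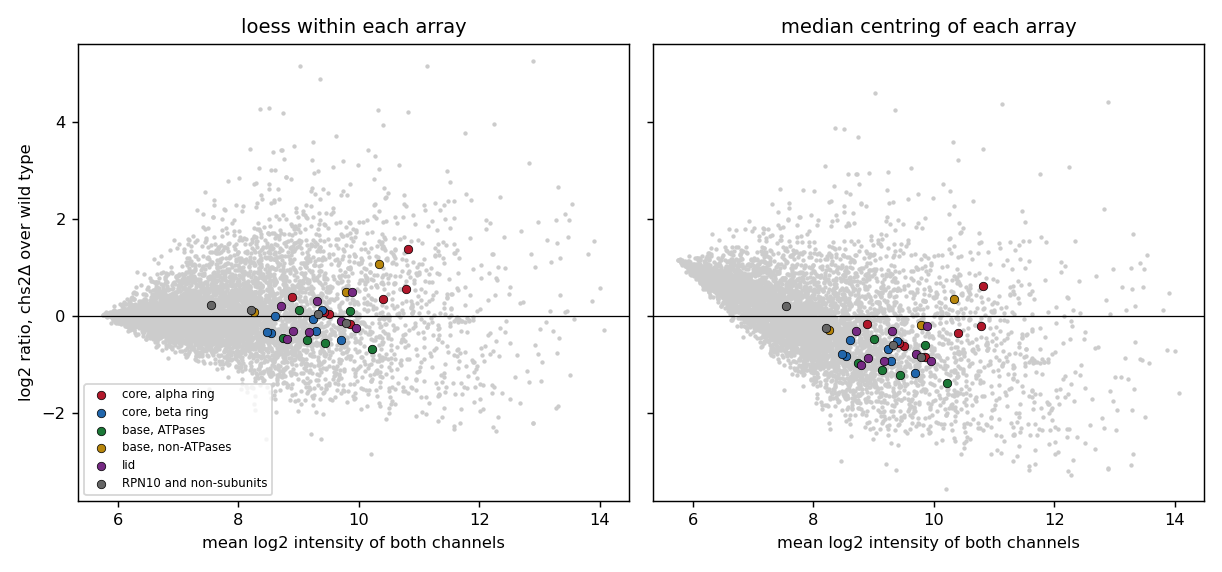
The log2 ratio of chs2Δ over wild type (vertical axis) is plotted against the mean log2 intensity of both channels (horizontal axis) for all genes (grey) and the 35 proteasome genes (coloured by their place in the complex), after loess on the left and after median centring on the right. The proteasome genes lie around 0 on the left, with a median of 0.03, and mostly below 0 on the right, with a median of -0.60.

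The α ring genes of the core leaned upward after loess, as the 3 non-ATPase genes of the base also did with a median log2 ratio of 0.51, and both medians turned negative with median centring. Of the 7 α ring genes, 4 were higher in chs2Δ and 0 lower. The shares of all genes, 35.7% higher and 36.0% lower, are those to read beside this count and those of the other parts. The median of the α ring log2 ratios was 0.36 after loess and turned to -0.36 with median centring. PRE6 (YOL038W), which encodes α4, had chs2Δ signals over background of 1584, 2443, 1468, 735 and 1498 intensity units on replicates 1 to 5, against 2974, 2130, 2168, 2559 and 1458 in wild type. The strains overlapped in signal, and chs2Δ was the brighter channel for PRE6 on 2 arrays. For all other proteasome genes but RPN1 the chs2Δ signal was the lower one on 5 of 5 arrays, whatever the sign of the normalized ratio. Its log2 ratios were 1.50, 1.49, 1.57, 0.75 and 1.56, a mean change of 2.59-fold (SE 0.12 log2, adjusted p = 1.7e-05). Replicate 4 was the low one, and without it the log2 ratio was 1.53.

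PUP2 (YGR253C) encodes α5. Before normalization its chs2Δ signals, 735 to 1650 intensity units, lay below those of wild type, 1933 to 3481, with no overlap. Its log2 ratios were 0.65, 0.56, 0.52, 0.38 and 0.66 on the 5 arrays, all above 0, with a mean of 0.55 (SE 0.06, adjusted p = 5.3e-05) that became -0.20 with median centring. PRE9 (YGR135W), the gene of α3, had ratios between 0.18 and 0.50 and a mean of 0.36 (SE 0.06, adjusted p = 7.8e-04; -0.36 with median centring). PRE8 (YML092C), the gene of α2, was the least repeatable of the α ring calls. On the 5 arrays it gave log2 ratios of 0.75, 0.31, 0.60, -0.23 and 0.52, so that replicate 4 had the opposite sign. Its mean was 0.39 (SE 0.13, adjusted p = 0.025). The call was lost without replicate 1, 2, 3 or 5, with adjusted p-values of 0.063, 0.057, 0.085 and 0.073, while without replicate 4 the log2 ratio was 0.55 (adjusted p = 7.7e-04). On replicates 4 and 5 alone it was 0.15 (adjusted p = 0.45).

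The remaining α ring genes were not called. SCL1 (α1) and PRE10 (α7) had mean log2 ratios of 0.05 and 0.09, each with a narrow spread over arrays, and PRE5 (α6) had -0.16 (95% interval -0.32 to 0.00). PRE5 passed the threshold with the slide as a random block (adjusted p = 0.047), with a dye term (0.017), with a background offset of 0 (0.0499) and without replicate 1 (0.016), but not with the slide as the replicate (0.25).

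The β ring genes leaned the other way. Of the 7, 0 were higher and 4 lower, and the median over these genes was -0.30 log2 after loess and -0.79 with median centring. PRE2 (YPR103W) encodes β5, the chymotrypsin-like protease of the core. Its chs2Δ signals were 361, 540, 330, 173 and 322 intensity units, against 2712, 1781, 1944, 2069 and 1196 in wild type. As for PUP2, which was called higher, these signals before normalization did not overlap, so the non-overlap carries no direction. Its log2 ratios of -0.38, -0.48, -0.36, -0.90 and -0.37 gave a mean of -0.50 (SE 0.09, adjusted p = 9.7e-04), with replicate 4 far below the others. Without that array the ratio was -0.40.

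PUP1 (YOR157C), the trypsin-like β2, had log2 ratios of -0.10, -0.49, -0.26, -0.58 and -0.31 and a mean of -0.35 (SE 0.08, adjusted p = 0.0033). Its fall was smallest on replicate 1. PRE1 (YER012W), which encodes β4, was the most even of the β ring genes, with log2 ratios between -0.41 and -0.28 and a mean of -0.33 (SE 0.05, adjusted p = 3.6e-04). PRE7 (β6) was also lower, by a mean log2 ratio of -0.30 (adjusted p = 0.0017). The caspase-like β1, PRE3, was not called, with a mean log2 ratio of -0.01 (95% interval -0.13 to 0.12). So of the 3 genes whose products carry the proteolytic sites, 2 were lower and 1 was not called. PUP3 (β3) at -0.05 and PRE4 (β7) at 0.12 were not called either. PRE4 passed the threshold without replicate 4, with a log2 ratio of 0.17 and an adjusted p of 0.037.

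In the base, the ATPase genes and the scaffold genes diverged after loess. Of the 6 ATPase genes, 0 were higher and 4 lower, and their median was -0.47 log2 after loess and -1.03 with median centring. RPT1 (YKL145W) had the lowest ratio of the 35 genes. Its chs2Δ signals were 500, 693, 443, 280 and 431 intensity units, against 3984, 3235, 3146, 3206 and 1808 in wild type, again without overlap before normalization. The log2 ratios were -0.47, -0.93, -0.61, -0.84 and -0.54, with a mean of -0.68 (SE 0.08, adjusted p = 8.4e-05), or a level 0.625 times that of wild type.

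RPT5 (YOR117W), whose product takes part in opening the gate of the core, had log2 ratios between -0.64 and -0.45 on the 5 arrays and a mean of -0.56 (SE 0.05, adjusted p = 2.4e-05). RPT3 (YDR394W) varied more, with log2 ratios of -0.78, -0.40, -0.62, -0.13 and -0.55, and its mean was -0.50 (SE 0.09, adjusted p = 0.0012). RPT6 was lower by a mean log2 ratio of -0.45 (adjusted p = 1.7e-04). The other ATPase genes were not called. RPT4 (YOR259C) had log2 ratios of 0.23, 0.21, 0.05, 0.22 and -0.10 with a mean of 0.12 (adjusted p = 0.12). It passed the threshold without replicate 5, with 0.18 and an adjusted p of 0.047. RPT2 had a mean of 0.10, but its ratios were 0.39 and 0.37 on replicates 2 and 4, where chs2Δ was labelled with Cy3, and -0.14, -0.00284 and -0.12 on replicates 1, 3 and 5, where it was labelled with Cy5. With a dye term in the fit RPT2 was called higher, at 0.15 (adjusted p = 0.022).

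RPN1 (YHR027C) encodes a scaffold of the base and a docking site for shuttle receptors of ubiquitinated proteins. Its chs2Δ signals were 773, 2001, 1031, 597 and 675 intensity units, against 2256, 1910, 2019, 1563 and 1081 in wild type, and the strains overlapped. Its log2 ratios were 0.91, 1.34, 1.17, 1.16 and 0.77, all above those of the other base genes on the same array. The mean change was 2.10-fold (1.07 log2, SE 0.09, adjusted p = 1.1e-05). RPN2 (YIL075C), the second scaffold, had log2 ratios of 0.64, 0.30, 0.60, 0.50 and 0.47 and a mean of 0.51 (SE 0.06, adjusted p = 1.3e-04), which became -0.17 (adjusted p = 0.035) with median centring. RPN13, a ubiquitin receptor bound to Rpn2, was not called, with a mean of 0.09.

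**Figure D3:**
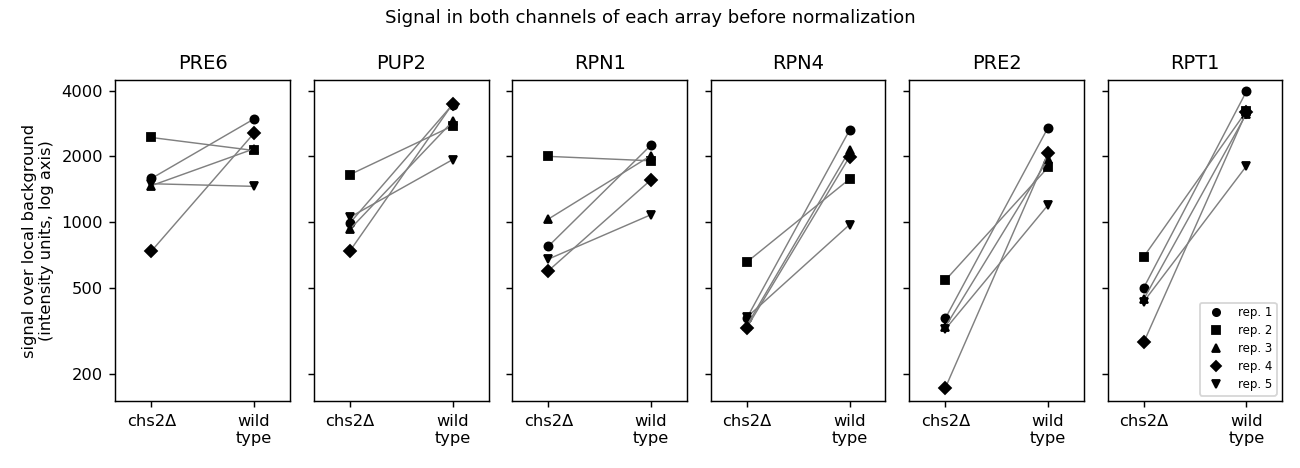
Signal over local background in intensity units (log axis) in the chs2Δ channel and in the wild-type channel of the same array, before normalization, for PRE6, PUP2, RPN1, RPN4, PRE2 and RPT1. Symbols and lines mark the 5 arrays. The chs2Δ channel of PRE6 reached 2443 and that of RPN1 2001 on replicate 2, within the range of wild type, whereas the chs2Δ signals of PRE2 and RPT1 stayed at or below 540 and 693. The chs2Δ channel is the dimmer one before normalization, and the signals of PUP2, which is called higher after loess, do not overlap either.

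The lid genes split in both directions after loess. Of the 8, 3 were higher and 4 lower and the median was -0.18 log2, and with median centring 8 of 8 were lower with a median of -0.82. These counts leave out the lid subunit SEM1, which was higher at 0.54 log2 after loess and at 0.27 with median centring. RPN12 (YFR052W), a PCI-domain subunit added last in lid assembly, had log2 ratios of 0.35, 0.50, 0.52, 0.59 and 0.51 and a mean of 0.49 (SE 0.05, adjusted p = 6.4e-05). RPN11 (YFR004W), the deubiquitinase, had ratios of 0.34, 0.19, 0.44, 0.17 and 0.45 and a mean of 0.32 (SE 0.06, adjusted p = 0.0019). RPN8 (YOR261C), its partner, had a mean of 0.22 (SE 0.06, adjusted p = 0.014), with replicate 1 highest at 0.44 and the others between 0.11 and 0.23. Its call was lost with a background offset of 0 (adjusted p = 0.072), with the first spot alone (0.053) and on slide 2 (0.13) or slide 3 (0.38) alone. With median centring RPN12, RPN11 and RPN8 had log2 ratios of -0.19, -0.31 and -0.30.

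RPN7 (YPR108W) was the lowest of the lid genes. Its log2 ratios were -0.20, -0.59, -0.30, -0.72 and -0.52, with a mean of -0.47 (SE 0.08, adjusted p = 9.8e-04). RPN9 (YDR427W) had a mean of -0.32 (SE 0.07, adjusted p = 0.0039), of which replicate 4 had the lowest ratio at -0.61. RPN3 (YER021W) had ratios between -0.40 and -0.18 and a mean of -0.30 (SE 0.06, adjusted p = 0.0013). These and RPN6 encode PCI-domain subunits, which form the horseshoe of the lid. So do RPN12, which was called higher, and RPN5, which was not called, so the domain did not set the lower genes apart. RPN6 was measured on 4 arrays, because its only spot was of poor quality on replicate 1, and had a mean of -0.25 (adjusted p = 0.023). Its call was lost without replicate 2, 3 or 5, with adjusted p-values of 0.053, 0.097 and 0.11. RPN5 was not called, with a mean of -0.11.

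Set side by side, the core, the base and the lid had similar medians of the fitted gene ratios. These were 0.02, 0.09 and -0.18 after loess, and -0.58, -0.59 and -0.82 with median centring. Of the 14 core genes 4 were higher and 4 lower, and of the 9 base genes 2 were higher and 4 lower. Compared array by array, the median of the core lay above that of the lid on 5 of 5 arrays, by a mean of 0.14 (SD 0.09), above that of the base on 4 of 5, by 0.06 (SD 0.11), and the base lay above the lid on 4 of 5, by 0.08 (SD 0.13). The differences of the base from the core and from the lid were thus within their spread over arrays. The array medians also ordered core and base the other way round from the medians of the fitted ratios, so their order is not settled. The sign of the core median was not fixed: it was between -0.04 and 0.10 over the alternatives other than median centring. Nor was that of the base, whose medians on the single arrays were -0.14, 0.01, -0.00284, -0.02 and -0.12.

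The division of the core into α ring and β ring was wider than the differences between core, base and lid. This split was chosen after the values were seen and is given as a description. The α ring had array medians of 0.50, 0.31, 0.36, 0.12 and 0.43, against -0.22, -0.26, -0.26, -0.29 and -0.22 for the β ring. The α ring lay above the β ring on 5 of 5 arrays, by 0.41 to 0.72 with a mean of 0.60 (SD 0.12). The ATPase genes had array medians of -0.47, -0.45, -0.49, -0.19 and -0.52, and the α ring exceeded them by a mean of 0.77 (SD 0.27). Median centring turned the α ring median below 0 but left it above that of the β ring by 0.43, the smallest difference among all alternatives, of which the largest was 0.75.

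**Figure D4:**
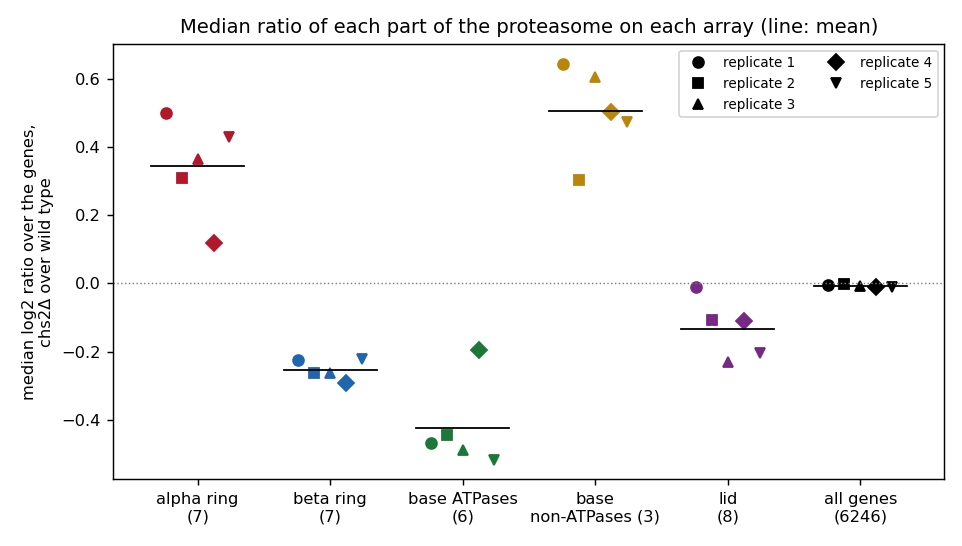
The median log2 ratio of chs2Δ over wild type after loess (vertical axis) over the genes of each part of the proteasome and over all genes, with 1 symbol per array and a line at the mean of the 5 arrays. The α ring lies at 0.12 to 0.50 and the β ring at -0.29 to -0.22, while with median centring both medians are below 0, at -0.36 and -0.79.

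The 4 genes outside core, base and lid had small ratios after loess. RPN4 (YDL020C), the activator of proteasome genes, had chs2Δ signals of 362, 654, 335, 327 and 365 intensity units, against 2638, 1575, 2131, 1992 and 972 in wild type. Its log2 ratios were -0.34, -0.03, -0.47, 0.02 and 0.06, with 2 arrays above 0 and 3 below, and the mean of -0.15 was not called (SE 0.09, 95% interval -0.35 to 0.05, adjusted p = 0.16). With median centring RPN4 was lower, at -0.83. RPN10 (YHR200W), a ubiquitin receptor, had a mean of 0.03 (95% interval -0.09 to 0.16, adjusted p = 0.61), with arrays on both sides of 0, and -0.60 with median centring. UMP1 (YBR173C), the chaperone that is enclosed in the maturing core, had log2 ratios of 0.24, -0.07, 0.13, 0.05 and 0.24 and a mean of 0.12 (SE 0.06, adjusted p = 0.12). It passed the threshold without replicate 2, with 0.16 and an adjusted p of 0.047.

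BLM3 on this array is YFL007W, which is now named BLM10 and encodes an activator that caps the core. It was higher in chs2Δ, with log2 ratios of 0.23, 0.37, 0.23, 0.14 and 0.18 and a mean of 0.23 (SE 0.05, adjusted p = 0.0052), and 0.20 with median centring. A second probe on the array, for the neighbouring ORF YFL006W that is now counted as part of the same gene, had a log2 ratio of -0.27 (adjusted p = 0.0061). The probes thus disagreed in sign, and the direction for BLM10 is uncertain.

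Repeat spots and dyes bear on these values. Of the 35 genes, 25 were read by 1 probe on 2 spots and 10 on a single spot. Averaged over the arrays, the absolute difference between the 2 spots had a median of 0.20 log2 over these genes. This average was largest for RPN9, at 0.34. PRE7 was not called with the first spot alone (adjusted p = 0.055), nor RPN9 (0.053) and BLM3 (0.11) with the second. The arrays of slide 3 alone left PRE1, PRE8, PRE9, RPN3, RPN6, RPN8, RPN11 and BLM3 not called, with adjusted p-values of 0.052 to 0.45. A dye effect was called for 0 genes of the array (limma, adjusted p below 0.05), while at an unadjusted p below 0.05 it was seen for 20.7% of all genes and for 7 of the 35 proteasome genes: PRE8, PUP1, RPT1, RPT2, RPT3, RPN7 and RPN11. RPT1 had a log2 ratio of -0.54 on arrays with chs2Δ in Cy5 and -0.88 with chs2Δ in Cy3. PRE8 had 0.62 with chs2Δ in Cy5 and 0.04 with chs2Δ in Cy3, and RPN11 had 0.41 in Cy5 and 0.18 in Cy3.

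Outside the particle, 75 further genes of the ubiquitin-proteasome system in 6 lists were read against the same background. Of these, 25 were higher and 23 lower in chs2Δ after loess, when 35.7% of all genes were higher and 36.0% lower. Without 4 genes whose chs2Δ signal exceeded background on 0 arrays (UBC5, UBC11, MMS2 and DOA4), the counts were 24 and 22. The same shares of all genes are those to read beside the counts of the single lists. The 15 genes of ubiquitin, its activating enzyme and its conjugating enzymes had 8 higher and 3 lower, and their median was 0.49 log2 after loess and 0.43 with median centring. Without UBC5, UBC11 and MMS2, 12 genes remained, of which 7 were higher and 2 lower, and the medians were 0.55 after loess and 0.03 with median centring. UBI4, the stress-inducible polyubiquitin gene, had log2 ratios of 2.10, 2.73, 2.76, 1.96 and 2.42, a mean change of 5.25-fold (adjusted p = 1.2e-06), and 1.53 log2 with median centring. UBC1, a ubiquitin-conjugating enzyme, had a mean of 1.40 on the 3 arrays that measured it (adjusted p = 3.2e-05). UBC6, the conjugating enzyme of the endoplasmic reticulum membrane, had -0.38 (adjusted p = 0.0025). UBC11 was also called lower, but its chs2Δ signal was not well above background on any array, so no fold is given, and with median centring it was called higher (adjusted p = 0.0044).

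Of 16 ubiquitin ligases, 6 were higher and 5 lower, with a median of -0.02 log2 after loess and -0.12 with median centring. BRE1, the ligase of histone H2B, had a mean log2 ratio of 1.58 and SLX5, a subunit of a ligase for SUMO-modified proteins, 1.49. SSM4 and RKR1, ligases of protein quality control, had -0.74 and -0.64 (adjusted p of 4.0e-06 and 1.2e-05). The chs2Δ signal of RKR1 was above background on 3 of 5 arrays. Of 18 deubiquitinases, 6 were higher and 8 lower, with medians of -0.01 and -0.05 under loess and median centring. UBP9 and UBP10 were highest, at 1.10 and 0.98, and UBP12 and UBP1 lowest, at -0.67 and -0.41. With median centring these genes kept their direction, and UBP10 was no longer called, at 0.27 (adjusted p = 0.075).

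Among 13 assembly chaperones and accessory factors 1 was higher and 5 were lower, with a median of -0.12 after loess and -0.18 with median centring. SEM1, a small protein that is also a lid subunit but was not counted with the lid above, had a mean log2 ratio of 0.54 (adjusted p = 0.0012). CIC1 had -1.56 (adjusted p = 4.6e-07) and between -1.68 and -1.38 on the arrays. Its product binds the core particle and is also a factor of ribosome assembly in the nucleolus. IRC25, a chaperone of α ring assembly, had -0.42 (adjusted p = 0.0056), and -0.18 (adjusted p = 0.11) with median centring. Its chs2Δ signal was above background on 3 of 5 arrays. The ratios of IRC25 were -0.69 and -0.73 with chs2Δ in Cy3, and -0.09, -0.24 and -0.34 with chs2Δ in Cy5. Of 8 shuttle receptors and Cdc48 partners 2 were higher and 0 lower after loess, with a median of 0.05 that turned to -0.36 with median centring. RAD23, which carries ubiquitinated proteins to the proteasome, was higher on 5 of 5 arrays with a mean of 1.08, or 2.11-fold (adjusted p = 1.4e-06). With median centring RAD23 was still called higher, but at 0.30 log2 (adjusted p = 0.0066). UBX2 had 0.39 (adjusted p = 3.8e-04).

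The regulators of RPN4 were mixed. Among its transcriptional activators, HSF1 had a mean log2 ratio of 0.24 (adjusted p = 0.0044), PDR3 had -0.46 (adjusted p = 3.6e-04), PDR1 had -0.17 (adjusted p = 0.039) and YAP1, at 0.02, was not called, whereas with median centring it had -0.60. MUB1, which acts with the ligase Ubr2 and the conjugating enzyme Rad6 in the breakdown of Rpn4, was higher on 5 of 5 arrays with a mean of 0.78 (adjusted p = 2.0e-05) and 0.34 with median centring. UBR2 and RAD6, picked after their values were seen, had 0.68 and 0.51 after loess (adjusted p of 2.2e-05 and 3.4e-05). With median centring UBR2 stayed higher at 0.91, while RAD6 had -0.15 (adjusted p = 0.11).

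**Figure D5:**
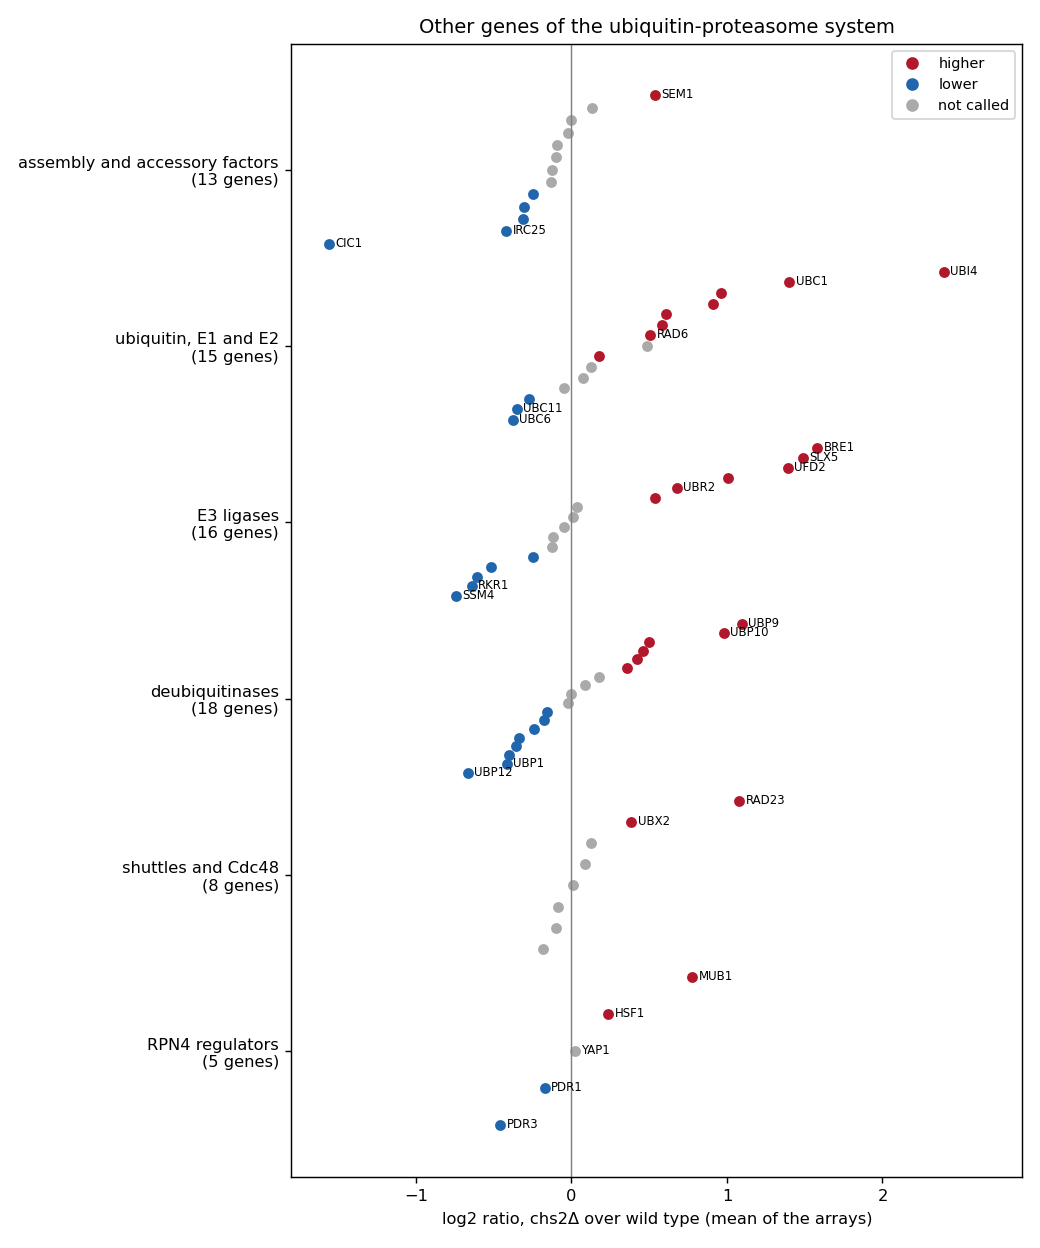
Each point is a gene of 1 of 6 lists of the ubiquitin-proteasome system, placed by its mean log2 ratio of chs2Δ over wild type after loess (horizontal axis) and coloured as higher, lower or not called (limma, adjusted p below 0.05). The list of ubiquitin and its activating and conjugating enzymes has 8 of 15 genes higher, of which UBC5 has no chs2Δ signal above background, with UBI4 at 2.39. Among the assembly factors CIC1 stands at -1.56.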

How the data were processed

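Per array and dye, the authors deposited the scanner output of 5 two-colour arrays, with the intensity and local background of every spot, quantified with ImaGene and not normalized (version 6.0.0 per the file headers, whereas the study's text names an earlier one). They also deposited log2 ratios of Cy5 over Cy3, background-corrected and lowess-normalized within each array, used here only as an alternative.

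The intensities were analysed with limma 3.58.1, jsonlite 2.0.0 and statmod 1.5.0 under R 4.3.3. Poor spots were left out, background was corrected by normexp with an offset of 50, each array was normalized by global loess (span 0.3), repeat spots were averaged per gene, and the sign of dye-swapped arrays was flipped so that every ratio is chs2Δ over wild type. Each gene was tested with lmFit and eBayes over the 5 arrays, with Benjamini-Hochberg adjustment over 6246 genes and calls at an adjusted p below 0.05. Above background means more than 2 SD of the local background over its median. The number of arrays limits the precision. The procedure was tested on simulated data in which few genes changed and both channels had the same intensities apart from a constant dye shift. That setting cannot test how a dimmer chs2Δ channel should be scaled.

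The members and lists were chosen with earlier results of these data known. Members in full detail were the 3 highest and 3 lowest of core, base and lid and all others, and of each list the 2 largest called rises and falls were named, with all of a list of 5. Lists were described by counts and medians, with no set test. Alternatives changed background correction, scaling, dye, slide, flags, dim genes, spots, thresholds and arrays. The medians of the α ring, β ring and ATPase genes and list counts without genes undetected in chs2Δ were added after the values were seen. All 35 members were matched to RefSeq gene names. A planned search of promoters for the Rpn4 motif was not run, and promoter and protein sequences were not used here. Arrays of myo1Δ, RT-PCR and blots were not analysed here.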

Additional observations from a re-analysis of the deposited data

Results flagged for a closer look

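On replicate 4, 3 proteasome genes and 1 group median lay apart from the other arrays. The log2 ratio of PRE6 was 0.75 there, against 1.49 to 1.57 on the other 4 arrays, that of PRE2 was -0.90, against -0.48 to -0.36, and that of RPT6 was -0.26, against -0.53 to -0.47. The median of the 6 ATPase genes was -0.19 on replicate 4, against -0.52 to -0.45. In each case the gap to the nearest array was 0.76 to 0.89 of the whole range, above Dixon's critical value of 0.71 for 5 values. This was so for 4 of 41 values examined, and chance alone gives about 1 in 20. The values were not independent, because group medians were taken from the same genes, and the ATPase median draws on RPT6. The count therefore cannot be judged against that share. Replicate 4 carried chs2Δ in Cy3 and had the dimmest chs2Δ channel, with a median of 79.8 intensity units over background, and the part of these in the values was not tested.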

How the results depend on the processing

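Every ratio is already a comparison paired within an array, so no further block by replicate was fitted. Of the 22 called proteasome genes, 9 kept call and direction under each alternative run (PRE2, PRE6, PUP1, RPN1, RPN7, RPT1, RPT3, RPT5 and RPT6), and 12 under each but median centring. Median centring gave 3 genes higher and 30 lower, and medians of -0.58 for the core, -0.59 for the base, -0.82 for the lid, -0.36 for the α ring, -0.79 for the β ring and -1.03 for the ATPase genes. It turned SCL1 to -0.61, PRE8 to -0.16, PRE9 to -0.36, PUP2 to -0.20, PRE10 to -0.56, PRE4 to -0.52, RPT2 to -0.59, RPT4 to -0.46, RPN2 to -0.17, RPN13 to -0.29, RPN8 to -0.30, RPN11 to -0.31, RPN12 to -0.19, RPN10 to -0.60 and UMP1 to -0.24. Without background correction the β ring median was -0.18 and the ATPase median -0.29, with PRE3 at 0.0417 and PUP3 at 0.00528. With plain subtraction the core median was -0.0194, the β ring median -0.37 and RPN10 -0.00798. With an offset of 0 the core median was -0.0414, the β ring median -0.41, the ATPase median -0.62, SCL1 -0.0124 and RPN10 -0.0312. With the first spot alone the core median was 0.10, the β ring median -0.16 and PRE3 0.15, and with the second alone the core median was -0.0334, the β ring median -0.36, SCL1 -0.0171 and RPN10 -0.0362. Slide 2 alone gave a core median of -0.0202 and RPN10 at -0.00451. Slide 3 alone gave 5 proteasome genes higher, 13 of the other ubiquitin-system genes lower, an α ring median of 0.15, PRE3 at 0.0539, PUP3 at 0.0624, PRE4 at -0.00356 and RPN4 at 0.0404. Leaving out 1 array gave a β ring median between -0.32 and -0.25, and PRE3 between -0.0403 and 0.0166, with its sign turned without replicate 2 (0.0166) and without replicate 3 (0.00871). The cause of these shifts was not tested. A single slide also leaves fewer arrays, and the part of this in the shifts was not tested either. The deposited ratios had correlations of at least 0.998 with those used here. The dim chs2Δ channel limits genes near background such as UBC11.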
